A study of Homo sapiens with 6 samples.

Results

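The genes described here encode the proteasome, its activators, its inhibitor and its assembly chaperones. They were chosen by name, as every gene whose symbol is PSM followed by a letter from A to G and a number, plus POMP, without the immunoproteasome genes PSMB8, PSMB9 and PSMB10 and the thymic PSMB11. This gave 45 of the 58735 genes in the table, with 8 PSMA, 7 PSMB, 6 PSMC, 14 PSMD, 4 PSME, 1 PSMF and 4 PSMG genes beside POMP. The symbols use no measured value, but the set was put forward with results of the same comparison known, so members count as picked on the fold changes of this contrast, and their calls and fold changes are a description and not independent evidence. RNA sequencing was done on 6 libraries of T24 cells, a human bladder cancer line. Control libraries, labelled sgNC, carry an empty vector as negative control (n = 3). The other libraries, labelled sgOTUD1, carry the genotype OTUD1 knockout (n = 3). No drug or other treatment is named for either group, and both were grown in serum-supplemented medium. Whether the replicates came from separate cultures, and whether the knockout is 1 clone or a pool, does not appear in the sources used here, so each p-value rests on library-to-library spread that may be technical.

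The proteasome is the protease complex that degrades proteins tagged with ubiquitin. Its core particle is a barrel of alpha rings, encoded by PSMA genes, around beta rings, encoded by PSMB genes, some of which carry the protease sites. A regulatory particle caps the barrel, with a ring of ATPases from PSMC genes that unfolds substrates and non-ATPase subunits from PSMD genes that bind and remove ubiquitin. Cells whose proteasome is impaired are known to raise transcription of the subunit genes through the factor NFE2L1, also called NRF1. OTUD1 itself encodes a deubiquitinase, an enzyme that removes ubiquitin from proteins.

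Assigned reads came to 16697370 in the shallowest library and 17191933 in the deepest. OTUD1 was at 13.9, 15.6 and 14.6 FPKM in sgNC and at 16.2, 17.9 and 17.1 FPKM in the libraries labelled sgOTUD1, so the transcript was not lower under the knockout label (log2 fold change 0.20, SE 0.054, limma adjusted p = 0.0167). After the first of the length corrections described further on it was not called (0.02, limma adjusted p = 0.755). A small insertion or deletion at a cut site need not change the transcript level, and this level therefore checks no knockout of that kind. The mitochondrial genome gave 4.01% ± 0.18 of reads in sgNC and 2.15% ± 0.077 in sgOTUD1 (SD, n = 3 each), and each of its 13 mRNAs fell. The part of this shift in the values given here was not tested. Epithelial keratins were high in every library, with KRT5 at a mean of 1195 FPKM in sgNC. Of 7 epithelial markers, 5 were higher in sgOTUD1, among them KRT18 (0.70), and CDH1 was lower (-0.51), with sums of 3355 to 3645 FPKM in sgNC and 4003 to 4261 FPKM in sgOTUD1. Of 4 mesenchymal markers, 3 could be tested, and VIM (0.51) and TWIST1 (0.78) were higher and CDH2 (-0.22) lower, with sums of 38.8 to 40.3 FPKM and 55.5 to 57.8 FPKM. Their part in the proteasome values was not tested. The 6 urothelial luminal markers summed to 5.20 to 6.57 FPKM in sgNC and 7.01 to 7.58 FPKM in sgOTUD1, with UPK3A at 0. The 5 leukocyte markers summed to at most 1.33 FPKM in any library, with PTPRC at 0.

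Most proteasome genes were higher in the libraries labelled sgOTUD1, by modest amounts. Of 43 members tested, 35 were called higher, 1 was called lower and 7 were not called at a limma adjusted p under 0.05. The median log2 fold change of the members was 0.31, against 0.03 over all 14658 genes tested. Called higher were 31.2% of all tested genes and called lower 24.7%. The counts of each gene group given below for this fit are to be read beside these shares. Groups did not overlap for 38 members, 35 with every sgOTUD1 library above every sgNC library and 3 with every one below, where 34.9% and 29.1% of all tested genes did so. Ratios of the group means of the tested members lay between 0.81, for PSMD2, and 1.85, for PSME2. The test needed a mean of at least 0.5 FPKM, and PSMA8, a testis form listed at 0 in all libraries, and PSMA2, at a mean of 0.45 FPKM, were not tested. PSMA2 had a ratio of 2.09. FPKM are relative to the other transcripts of a library. A change in the number of expressing cells, a change in RNA per cell and a change in the rest of the transcriptome cannot be told apart from them.

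**Figure D1:**
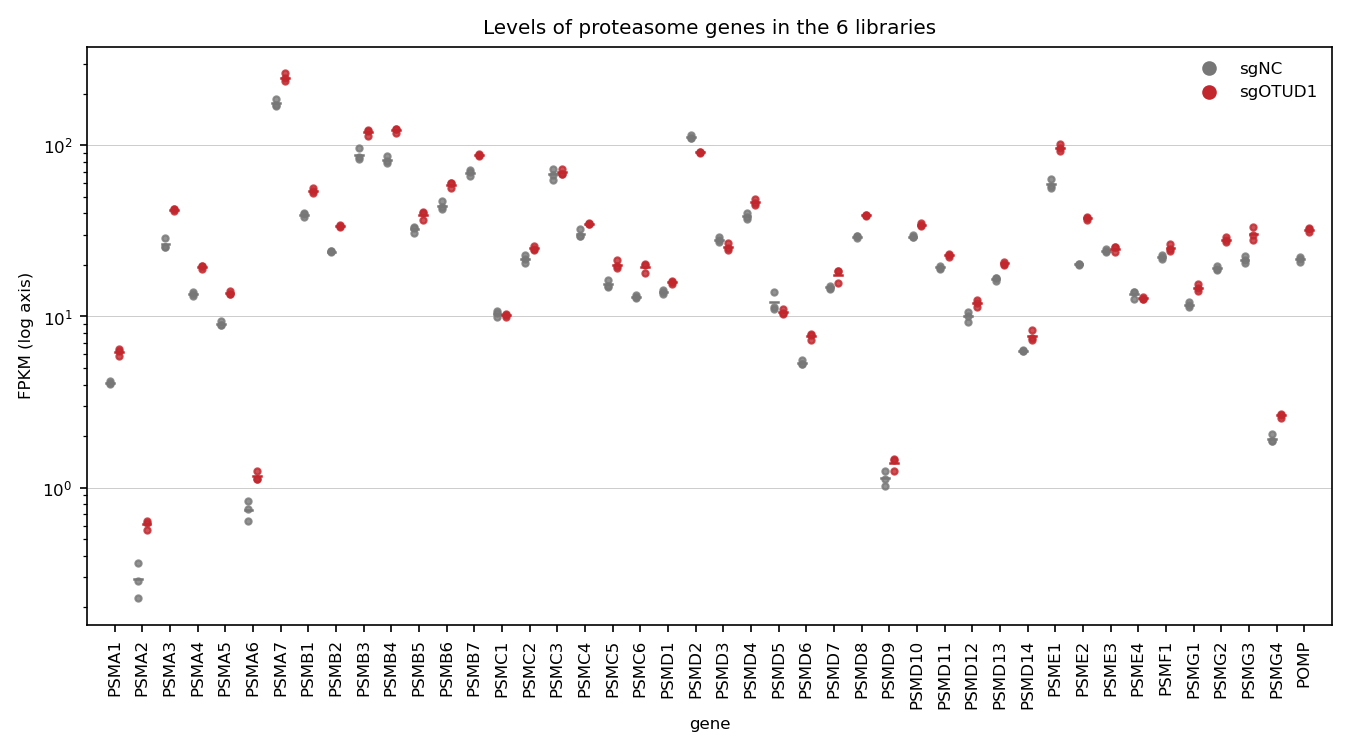
Level of each proteasome gene in each library, in FPKM on a log axis, with 1 point per library and a bar at the group mean, grey for sgNC and red for sgOTUD1 (n = 3 each). Most red groups sit above their grey neighbours without overlap, PSMD2 sits below its own, and PSMA2, PSMA6, PSMD9, PSMG4 and PSMA1 have the lowest levels of the genes drawn; PSMA8, at 0, is not drawn.

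The alpha ring genes rose together, 6 of 6 tested, and their log2 fold changes had a median of 0.50 and ran from 0.31 to 0.65. PSMA3 (chromosome 14, 58244831 to 58272012, plus strand, hg38) was at 25.4, 28.9 and 25.4 FPKM in sgNC and at 42.5, 41.5 and 42.5 FPKM in the sgOTUD1 libraries. This is the largest log2 fold change among the alpha genes, 0.65 (SE 0.054, limma adjusted p = 8.02e-05), with every sgOTUD1 library above every sgNC library. PSMA5 was at 8.87, 8.89 and 9.45 FPKM against 13.5, 13.4 and 14.02 FPKM (0.54, SE 0.042, limma adjusted p = 5.59e-05). PSMA4 was at 13.2, 13.8 and 13.6 FPKM against 19.6, 19.6 and 19.0 FPKM (0.49, SE 0.036, limma adjusted p = 4.89e-05). Neither pair of groups overlapped, and the replicates of each group lay within about 1 FPKM of each other. PSMA7, the member with the highest FPKM at 176 ± 9.5 FPKM in sgNC (SD, n = 3), was at 249 ± 14 FPKM in sgOTUD1. On the log2(FPKM + 1) scale PSMA6 had the smallest change, from 0.755, 0.641 and 0.835 FPKM to 1.13, 1.12 and 1.2502 FPKM (0.31, SE 0.086, limma adjusted p = 0.0181). The offset of 1 FPKM lowers the fold change of so low a gene: with an offset of 0.1 it was 0.59, and the ratio of its group means, 1.57, was second to that of PSMA3, 1.59, among the tested alpha genes. It was no longer called once sgNC replicate 2 was left out (0.27, limma adjusted p = 0.0557) or sgOTUD1 replicate 3 (0.28, limma adjusted p = 0.0632). A mean of 85.7 reads in sgNC stood behind it, against 5454 reads for PSMA7.

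All 7 beta ring genes rose, with a median log2 fold change of 0.44 and a range from 0.27 to 0.57. The structural subunit gene PSMB4 (chromosome 1, 151399534 to 151401944, plus strand) was at 80.8, 79.0 and 86.6 FPKM in sgNC and at 118, 125 and 124 FPKM in sgOTUD1, the largest change of the group (0.57, SE 0.044, limma adjusted p = 5.67e-05). PSMB2 was at 23.91, 23.98 and 23.98 FPKM against 33.2, 33.9 and 34.3 FPKM (0.48, SE 0.031, limma adjusted p = 2.92e-05). Its sgNC libraries were nearly identical, and the groups stood well apart. The catalytic subunit genes lay at the lower end of the beta genes. PSMB5, which carries the chymotrypsin-like site that proteasome inhibitors bind, was at 30.9, 32.7 and 33.2 FPKM against 36.4, 40.5 and 40.5 FPKM (0.27, SE 0.053, limma adjusted p = 0.0041). PSMB7, of the trypsin-like site, was at 65.8, 69.8 and 71.7 FPKM against 87.6, 88.9 and 87.1 FPKM (0.34, SE 0.039, limma adjusted p = 0.000329). PSMB6, of the caspase-like site, was at 42.3, 43.6 and 47.0 FPKM against 56.2, 60.5 and 60.3 FPKM (0.41, SE 0.050, limma adjusted p = 0.000486). For these 3 genes too, every sgOTUD1 library was above every sgNC library, and whether they rose less than the structural beta genes was not tested. PSMB1 (0.46) and PSMB3 (0.44) lay between.

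ATPase ring genes were uneven, with 4 higher, 0 lower and 2 not called of 6, and a median log2 fold change of 0.19. PSMC6 (chromosome 14, 52707172 to 52728587, plus strand) was at 13.4, 12.9 and 12.8 FPKM in sgNC and at 20.3, 17.9 and 20.1 FPKM in sgOTUD1 (0.54, SE 0.054, limma adjusted p = 0.000177). PSMC5 was at 15.1, 14.9 and 16.4 FPKM against 19.8, 21.2 and 19.2 FPKM (0.35, SE 0.053, limma adjusted p = 0.00121). The groups of both genes were apart. PSMC3 was at 63.1, 67.1 and 72.7 FPKM against 67.8, 68.1 and 72.5 FPKM (0.04, SE 0.057, limma adjusted p = 0.577). PSMC1 was at 10.7, 9.96 and 10.5 FPKM against 10.2, 10.3 and 9.87 FPKM (-0.03, SE 0.043, limma adjusted p = 0.564). In these last 2 genes the groups overlapped, although their proteins sit in the same ring as that of PSMC6. PSMC2 and PSMC4 rose by 0.19 each with the deposited scaling, and neither was called higher with median-ratio rescaling (0.060 and 0.056), TPM, limma-voom on recovered reads or either length correction.

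Of the 14 PSMD genes, 10 were higher, 1 lower and 3 not called, and fold changes had a log2 median of 0.23 and ran from -0.30 to 0.44. PSMD2 (chromosome 3, 184298709 to 184309054, plus strand), the large scaffold of the base that docks ubiquitin-binding shuttle proteins, was the only member called lower. It was at 111, 111 and 115 FPKM in sgNC and at 91.4, 90.7 and 91.0 FPKM in sgOTUD1, a log2 difference of -0.30 (SE 0.030, limma adjusted p = 0.000172). It had the second highest FPKM of the members in sgNC, from a mean of 10862 reads, and its groups stood further apart than their own spread. The other base scaffold gene, PSMD1, rose by 0.18, and PSMD4, a ubiquitin receptor, was at 37.2, 38.1 and 40.1 FPKM against 44.5, 48.8 and 45.8 FPKM (0.26, SE 0.047, limma adjusted p = 0.00271).

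Of the 8 lid genes, which encode the part of the regulatory particle that holds the deubiquitinase, 7 were higher. Among all tested genes 31.2% were called higher. PSMD6 was at 5.30, 5.56 and 5.25 FPKM against 7.93, 7.76 and 7.30 FPKM (0.44, SE 0.047, limma adjusted p = 0.000241). PSMD8 was at 29.7, 28.8 and 29.5 FPKM against 39.2, 38.9 and 39.4 FPKM (0.41, SE 0.031, limma adjusted p = 5.33e-05). PSMD14, the metalloprotease that cuts ubiquitin chains off substrates, was at 6.31, 6.26 and 6.39 FPKM against 8.37, 7.49 and 7.29 FPKM (0.25, SE 0.055, limma adjusted p = 0.0072). All 3 lid genes had groups that did not overlap. PSMD7, PSMD11, PSMD12 and PSMD13 rose by 0.23, 0.23, 0.23 and 0.28, and PSMD7 was not called when sgNC replicate 1 (limma adjusted p = 0.057), sgOTUD1 replicate 1 (adjusted p = 0.0559) or sgOTUD1 replicate 3 (adjusted p = 0.0626) was left out. PSMD3 was the lid gene not called, at 27.8, 27.2 and 29.3 FPKM against 24.6, 27.0 and 25.3 FPKM (-0.13, limma adjusted p = 0.0535). Without sgOTUD1 replicate 2 it was called lower (-0.17, limma adjusted p = 0.0269). Of the lid genes called higher, PSMD7, PSMD11, PSMD12 and PSMD14 lost that call with median-ratio rescaling and with TPM.

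As measured, a smaller share of the base chaperone genes than of the core chaperone genes in the set was called higher. Of the 3 base chaperone genes, PSMD10, also called gankyrin, rose by 0.22 (limma adjusted p = 0.00112) and the others were not called. PSMD5 was at 11.4, 13.95 and 11.02 FPKM against 11.01, 10.3 and 10.5 FPKM (-0.17, SE 0.084, limma adjusted p = 0.126), and the value was -0.072 without sgNC replicate 2, its highest library. PSMD9 was at 1.248, 1.02 and 1.13 FPKM against 1.46, 1.24 and 1.44 FPKM (0.16, SE 0.081, limma adjusted p = 0.132). With the first of the length corrections described further on, PSMD9 was called higher (0.27, limma adjusted p = 0.0268), PSMD10 was not called (0.0065) and PSMD5 was called lower (-0.24, limma adjusted p = 0.0494). All 5 chaperone genes of the core were higher as measured, with a median of 0.47, and the difference between the chaperone groups was not tested. POMP (chromosome 13, 28659104 to 28678925, plus strand), the maturation protein degraded by the finished core, was at 21.7, 20.9 and 22.3 FPKM against 32.5, 31.2 and 32.8 FPKM (0.55, SE 0.040, limma adjusted p = 4.46e-05). PSMG2, which pairs with PSMG1 to build the alpha ring, was at 19.8, 18.6 and 18.9 FPKM against 29.2, 27.4 and 27.9 FPKM (0.54, SE 0.041, limma adjusted p = 5.27e-05). PSMG1 was at 11.3, 12.1 and 11.6 FPKM against 14.7, 14.1 and 15.4 FPKM (0.31, SE 0.047, limma adjusted p = 0.00123). In each of these genes the lowest sgOTUD1 library exceeded the highest sgNC library. For the other alpha ring pair, PSMG3 was at 20.6, 21.5 and 22.5 FPKM against 27.9, 33.1 and 29.8 FPKM (0.47, SE 0.066, limma adjusted p = 0.000847). PSMG4 was at 1.86, 1.86 and 2.06 FPKM against 2.55, 2.67 and 2.71 FPKM (0.31, SE 0.059, limma adjusted p = 0.00343). With the first length correction PSMG1 was not called (0.10, limma adjusted p = 0.129), and the other 4 core chaperone genes were higher.

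The alternative caps showed the widest split among the PSME genes. PSME2 and PSME1 encode the subunits of an activator cap that interferon induces and that acts in making peptides for antigen presentation, and both rose. PSME2 (chromosome 14, 24143362 to 24147570, minus strand) was at 20.1, 20.2 and 20.3 FPKM against 37.5, 36.7 and 38.0 FPKM, the largest change of any tested member (0.86, SE 0.032, limma adjusted p = 4.54e-06). PSME1, its neighbour at 24136158 to 24138967 on the plus strand, was at 56.5, 58.2 and 63.8 FPKM against 92.2, 96.3 and 102 FPKM (0.69, SE 0.057, limma adjusted p = 7.68e-05). The 2 other caps were not called. PSME3, a nuclear activator, was at 23.8, 24.7 and 24.2 FPKM against 25.6, 25.4 and 23.8 FPKM (0.04, SE 0.040, limma adjusted p = 0.431). PSME4, a large activator known to act in DNA repair and spermatogenesis, was at 13.9, 13.9 and 12.6 FPKM against 12.7, 12.6 and 13.1 FPKM (-0.07, SE 0.048, limma adjusted p = 0.251). Both had groups that overlapped. PSMF1, an inhibitor of the core in vitro, was at 21.8, 22.4 and 22.8 FPKM against 24.9, 26.5 and 24.2 FPKM (0.17, SE 0.044, limma adjusted p = 0.0144), and its call ended with median-ratio rescaling (0.034, limma adjusted p = 0.507), TPM (0.022, limma adjusted p = 0.676), limma-voom (0.045), the second length correction (0.086) and without sgNC replicate 1 (0.15).

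**Figure D2:**
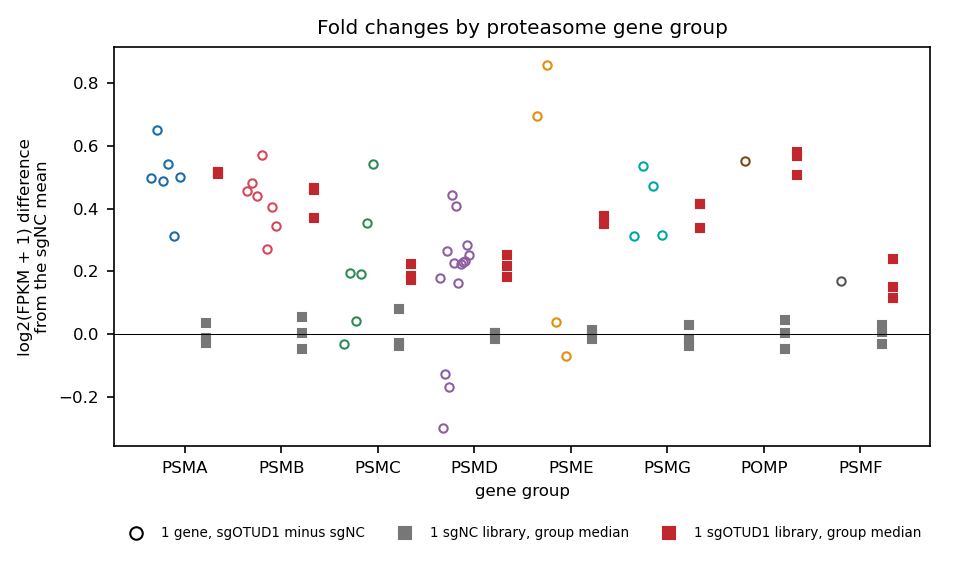
Difference from the sgNC mean in log2(FPKM + 1) for each gene group, with open circles for single genes (sgOTUD1 minus sgNC) and squares for the median over the group's genes in each library, grey for sgNC and red for sgOTUD1 (n = 3 each). The red squares lie above the grey ones in each group, the PSMA genes form a tight cluster near their median of 0.50, and the PSMD and PSME genes spread from below 0 upward.

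Taken per library, the median over the 6 PSMA genes lay 0.51 to 0.52 above the sgNC mean in the sgOTUD1 libraries, and within -0.03 to 0.04 of it in the sgNC libraries. For PSMB genes the sgOTUD1 libraries lay at 0.37 to 0.47, for PSME at 0.35 to 0.38, for PSMD at 0.18 to 0.25 and for PSMC at 0.17 to 0.22. The PSMA values were thus above the PSMB, PSMC and PSMD values in each sgOTUD1 library, while PSMC and PSMD ranges overlapped. Genes of a group are not replicates, and no test of the order was made. Within a group the spread of fold changes also differed, with an SD over genes of 0.11 for PSMA and 0.10 for PSMB, 0.21 for both PSMC and PSMD, and 0.46 for PSME.

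Fold change went down with gene length across the transcriptome, and the proteasome groups differ in length. Exon length here is the union of all annotated exons of a gene. Over 11372 nuclear protein-coding genes the log2 fold change went down by 0.15 with each doubling of exon length (slope -0.15), and over the 43 tested members the slope was -0.095. Median exon length was 1787 nt for PSMB, 4019 nt for PSMC, 4513 nt for PSMA and 5076 nt for PSMD genes. When protein-coding genes were split into 10 bins by length, the shortest bin, up to 2124 nt, had a median log2 fold change of 0.31, and the 8 members among them one of 0.46. In the bin from 2128 to 2896 nt they were 0.22 for all and 0.23 for 7 members. In the bin from 2897 to 3595 nt the medians were 0.15 for all and 0.50 for 7 members, and in the bin from 6882 to 8187 nt they were -0.06 for all and 0.37 for 4 members. The bins from 4299 to 5067 nt, 5068 to 5906 nt, 5907 to 6881 nt and 8188 to 10437 nt held 5, 6, 2 and 4 members, with medians of 0.28, 0.17, 0.14 and 0.24 against 0.04, 0.01, -0.02 and -0.13 for all. The cause of the length relation was not tested.

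**Figure D3:**
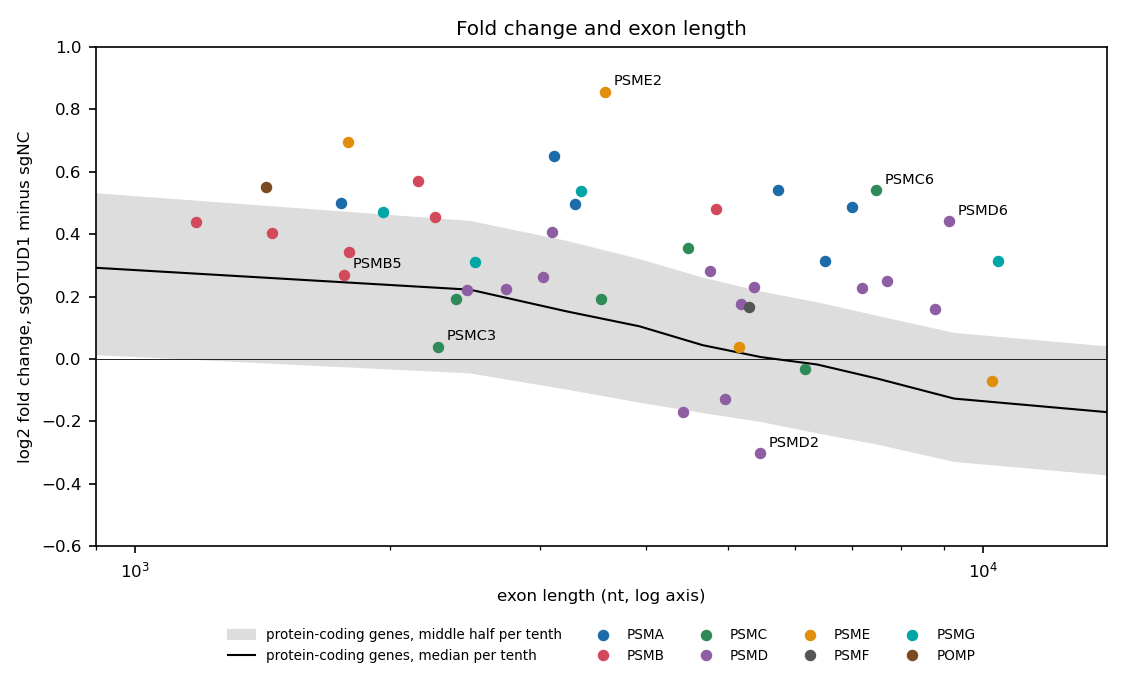
Log2 fold change (sgOTUD1 minus sgNC) against exon length in nt on a log axis, with 1 point per tested proteasome gene coloured by group, and a line and band for the median and the middle 50% of nuclear protein-coding genes in each of 10 bins of length. The line goes from 0.31 in the shortest bin to -0.22 in the longest, the short PSMB genes lie mostly inside the band, and long members such as PSMC6 and PSMD6 lie above it.

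A smooth curve of length was then removed from each library in 2 ways. With the first, fitted to log2(FPKM + 1), 28 members were higher, 4 lower and 11 not called, with a median of 0.23, where 26.3% of all genes were higher and 28% lower. With the second, fitted to genes of at least 5 FPKM and divided out of FPKM, 20 members were higher and 6 lower, around a median of 0.11, where 21.4% of all genes were higher and 31.7% lower. The same 20 genes were higher as measured and under both corrections. They are POMP, PSMA1, PSMA3, PSMA4, PSMA5, PSMA6, PSMB1, PSMB2, PSMB4, PSMC5, PSMC6, PSMD6, PSMD8, PSMD11, PSMD13, PSMD14, PSME1, PSME2, PSMG2 and PSMG4. PSMD2 was lower in each of the 3 fits, at -0.31 with the first correction and -0.38 with the second.

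The alpha and beta genes, close to each other as measured, came apart under length correction. Over the 43 tested members the slope per doubling of exon length changed sign, from -0.095 as measured to 0.062 and then 0.11. Over all nuclear protein-coding genes it was 0.021 with the second correction. PSMB genes are mostly shorter than PSMA genes, and the part of the reversed member slope in this split was not tested. PSMA kept a median of 0.42 and then 0.35, with 6 and 5 of 6 genes higher. PSMB went to 0.15 and then -0.02, with 5 and 3 of 7 genes higher. Calls ended for the catalytic genes PSMB5 (0.01, limma adjusted p = 0.891) and PSMB7 (0.08, limma adjusted p = 0.0799) with the first correction, and PSMB6 was at -0.02 with the second. With the second correction PSMB5 was called lower (-0.12, limma adjusted p = 0.0407). PSMB2, the longest beta gene at 4843 nt, stayed at 0.44 and 0.37. PSMC had medians of 0.03 and -0.04, with PSMC6 at 0.61 and 0.58 and PSMC3 lower at -0.19 (limma adjusted p = 0.0111) and -0.30. PSMC4 was called lower with the second correction (-0.14, limma adjusted p = 0.015). PSMD had medians of 0.18 and 0.12, and PSMD3 and PSMD5 were called lower under both corrections, at -0.17 and -0.24 with the first. PSME2 stayed at 0.73 and 0.65 and PSME1 at 0.43 and 0.30. These directions and calls rest on which correction, if any, is applied.

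**Figure D4:**
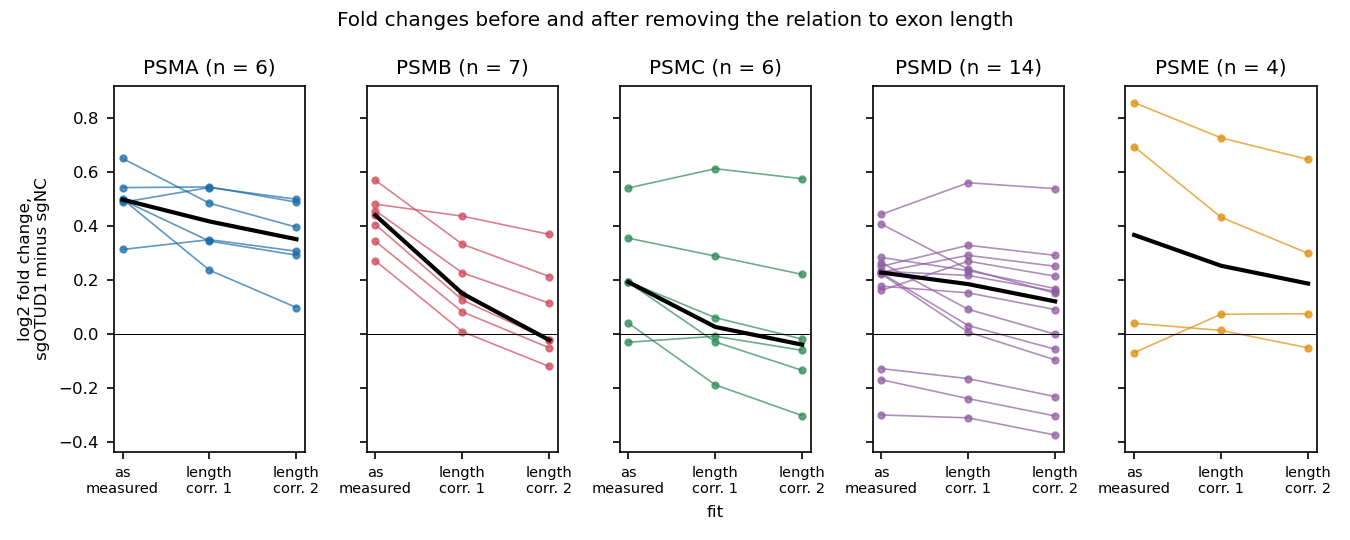
Log2 fold change (sgOTUD1 minus sgNC) of each tested gene as measured and after each length correction, with thin lines for genes and a thick black line for the group median. The PSMB median goes from 0.44 to -0.02 while the PSMA median stays at 0.35 or above, and PSMC6 alone keeps the PSMC group's upper edge near 0.6.

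Scaling between libraries moved the counts as well. Median-ratio rescaling lowered the median of all tested genes by 0.10 and TPM lowered it by 0.13, and of all called genes 39.7% and 38.2% were then higher, against 55.9% with the deposited scaling. Members were higher in 26 and lower in 5 cases with median-ratio rescaling, where 22.3% of all tested genes were higher and 33.9% lower, and in 25 and 5 with TPM, where 21.4% were higher and 34.7% lower. With limma-voom on recovered reads 28 members were higher and 5 lower, against 23.9% and 36% of all genes. Among genes of at least 5 FPKM, 33 of 40 members were higher and 2 lower, against 49.1% and 24.9% of all such genes. The calls of 9 members ended with median-ratio rescaling, those of PSMC2, PSMC4, PSMD1, PSMD7, PSMD10, PSMD11, PSMD12, PSMD14 and PSMF1, and with TPM that of PSMB5 ended as well. PSMC1, PSMD3, PSMD5 and PSME4 were called lower in addition to PSMD2 with median-ratio rescaling, TPM and limma-voom. PSMC3 and PSME3, not called, went from 0.04 each to -0.10 and -0.09 with median-ratio rescaling. Relative to the median of all genes, the member median differed by 0.28 as measured, 0.28 with median-ratio rescaling, 0.30 with TPM and 0.31 with limma-voom. The difference was smaller among genes of at least 5 FPKM (0.19) and with the first and second length corrections (0.25 and 0.18).

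FPKM levels differed widely among the genes of a group. FPKM divide by the union of annotated exons, so levels compared between genes also depend on that length. In sgNC, PSMA7 (1750 nt) and PSMA5 (5724 nt) were at 176 and 9.07 FPKM, from means of 5454 and 920 reads. The part of exon length in the spreads below was not tested. In sgNC the beta genes were the most even, from 23.96 to 88.2 FPKM, with an SD over genes of 0.72 in log2 FPKM. The ATPase genes spanned 10.4 to 67.6 FPKM with an SD of 0.98, and the 14 PSMD genes 1.13 to 112 FPKM with an SD of 1.55. The lowest of these is the base chaperone gene PSMD9, and without the base chaperones the other 11 PSMD genes spanned 5.37 to 112 FPKM with an SD of 1.24. The alpha genes other than PSMA8 had an SD of 3.13, and the highest was 469 to 830 times the lowest in each sgNC library, with PSMA2 the lowest. Among the 4 alpha genes with under 5% of exon positions shared with another gene it was 19.1 to 19.8 times the lowest. In the sgOTUD1 libraries the SDs were 2.98, 0.74, 0.93 and 1.46 for PSMA, PSMB, PSMC and PSMD, in the same order of groups.

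Of the 5 expressed members with the lowest levels, 4 have most of their coding positions in exons of another annotated gene on the same strand, the exception being PSMG4. PSMA2 (chromosome 7, 42916857 to 42932223, minus strand), an alpha subunit gene, was at 0.286, 0.365 and 0.225 FPKM in sgNC and at 0.641, 0.566 and 0.619 FPKM in sgOTUD1, from a mean of 27.7 and 53.3 reads. Of its coding positions, 97.1% are also exonic in AC010132.3, itself listed at a mean of 0 FPKM in sgNC and 0.0199 FPKM in sgOTUD1. For PSMA1 the share was 88.6%, with AC018523.2 at 0 FPKM in every library, and for PSMA6 70.4%, with AL121594.1 at 0.0146 FPKM in sgNC. For PSMD9 it was 58.7%. The genes that share exons with it on its strand include WDR66, at 3.95 FPKM in sgNC and 3.85 FPKM in sgOTUD1. They also include AC069503.2, at 0 and 0.134 FPKM. No other member exceeded 14.2%, the share of PSMF1. How reads in shared exons were assigned is not stated in the labels, and the low levels of PSMA1, PSMA2, PSMA6 and PSMD9 may not be those of their transcripts. These 4 genes were singled out after their values were seen. On the opposite strand, NRDE2 shares 75.8% of the exon positions of PSMC1, and without a stated strand setting reads of the 2 genes in those positions cannot be told apart. The same holds for PSMA2 and MRPL32, a gene on its opposite strand at 6.22 FPKM in sgNC and 10.9 FPKM in sgOTUD1. Exons of other genes on either strand cover 34.6% of the exon positions of PSMA2, and those on the same strand 14.6%. Over the 29 tested members with under 5% of exon positions shared on either strand, 24 were higher and 1 lower as measured, and the median was 0.34. Of all tested genes 31.2% were higher and 24.7% lower. With the first length correction 17 of these members were higher and 4 lower (median 0.15), and with the second 11 were higher and 6 lower (median 0.086). The shares of all tested genes higher and lower were 26.3% and 28% with the first correction and 21.4% and 31.7% with the second.

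**Figure D5:**
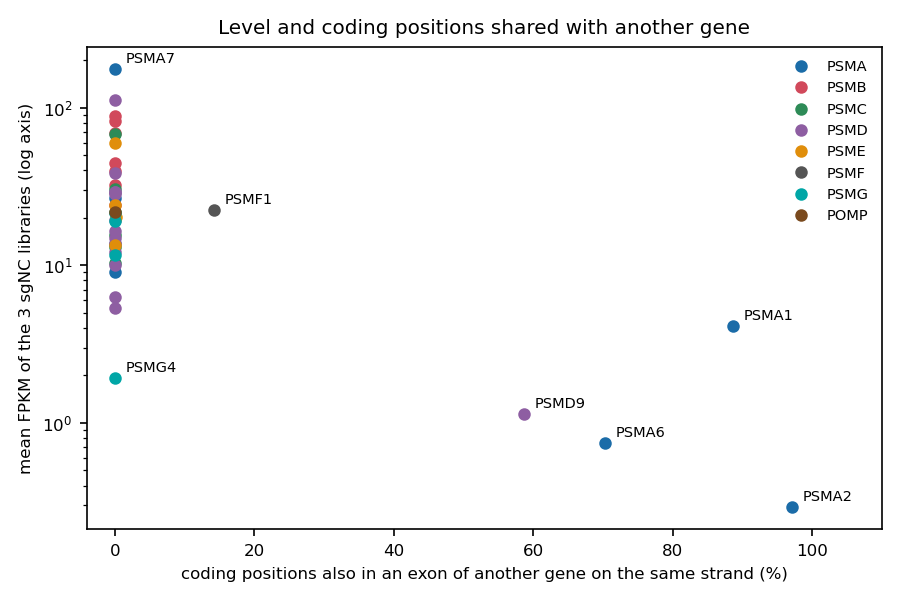
Mean level in the 3 sgNC libraries, in FPKM on a log axis, against the percentage of a gene's coding positions that are also in an exon of another gene on the same strand, with 1 point per proteasome gene and colours for gene groups. PSMA2, PSMA6, PSMD9 and PSMA1, with shares of 58.7% to 97.1%, all lie at or below 4.11 FPKM. Of the members drawn with no coding position shared on the same strand, only PSMG4 lies that low. PSMA8, at 0, is not drawn.

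Genes that work with the proteasome were mixed. Of 27 partner genes, chosen with earlier results of these data known, 14 were higher and 6 lower (median log2 fold change 0.14). Over all tested genes 31.2% were higher and 24.7% lower. ZFAND5, a ubiquitin-binding proteasome activator, was at 41.4, 40.0 and 42.3 FPKM against 66.5, 63.1 and 63.9 FPKM (0.63, SE 0.037, limma adjusted p = 1.92e-05). PITHD1, a proteasome-interacting protein gene, rose from a mean of 17.6 to 27.0 FPKM. FAF2, an adaptor that brings the segregase VCP to membranes, fell from 10.1 to 5.85 FPKM (-0.70, SE 0.051, limma adjusted p = 4.43e-05). The 3 immunoproteasome genes, left out of the set, were higher as well, PSMB8 at 21.4 against 28.6 FPKM, PSMB9 at 23.1 against 33.5 FPKM and PSMB10 at 14.99 against 19.5 FPKM. With the first length correction PSMB10 was not called (0.11, limma adjusted p = 0.121).

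Of 11 genes of factors linked to transcription of proteasome genes, 6 were higher and 3 lower, where 31.2% and 24.7% of all tested genes were. NFE2L1, the factor of the proteasome recovery response, was lower, at 77.3, 78.3 and 78.1 FPKM against 59.2, 62.3 and 60.7 FPKM (-0.35, SE 0.032, limma adjusted p = 0.000109). Its groups did not overlap. NFE2L1 is known to be controlled by protein cleavage and turnover, which its mRNA does not show. The small MAF genes MAFF and MAFG, whose proteins pair with NFE2L1 and NRF2 on DNA, were higher, MAFF from 3.67, 4.71 and 4.32 FPKM to 14.7, 15.2 and 16.2 FPKM (1.65, SE 0.079, limma adjusted p = 1.02e-05) and MAFG from 19.3 to 28.9 FPKM.

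Promoter windows of the members were read for the element that such factors bind, and whether it has a part in the fold changes was not tested. RefSeq windows of 300 bases (GRCh38.p14, 250 before and 50 after an annotated start) were found for 39 of the 45 members. The core of the antioxidant response element, TGACNNNGC or TGAGNNNGC on either strand, was in a window of 21 of these members (53.8%) and of 33.7% of all 27305 genes with windows. Those genes were not limited to ones expressed in these libraries. The 5 letters CCAAT were in 18 members (46.2%) against 39.7% of all genes, and a pair of heat shock element units, GAANNTTC, in 0 members against 8.21%. The 3 motifs were searched on both strands and their matches may overlap. A match is a description of letters and shows no binding. Stretches of 7 members around a match follow, chosen after their values were seen to cover each subunit group and a member that did not rise, PSMD3, with the match in capitals and each sequence 5′ to 3′ on the strand of its gene.
PSMA3: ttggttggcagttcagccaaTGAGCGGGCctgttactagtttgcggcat
PSMA4: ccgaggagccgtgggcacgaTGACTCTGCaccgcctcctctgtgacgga
PSMB3: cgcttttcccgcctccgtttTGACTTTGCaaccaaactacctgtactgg
PSMC5: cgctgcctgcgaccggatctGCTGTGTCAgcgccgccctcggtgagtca
PSMD12: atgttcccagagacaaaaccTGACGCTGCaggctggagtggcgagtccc
PSMD3: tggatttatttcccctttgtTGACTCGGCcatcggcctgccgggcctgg
PSME2: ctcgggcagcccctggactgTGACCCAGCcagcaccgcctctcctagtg

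The stretch of PSMA3 lies at chr14:58244809-58244857 on the plus strand, that of PSMA4 at chr15:78540640-78540688 on the plus strand, and that of PSMB3 at chr17:38752617-38752665 on the plus strand. The stretch of PSMC5 is at chr17:63827644-63827692 on the plus strand, with its match on the reverse strand of the gene, and that of PSMD12 at chr17:67366714-67366762 on the minus strand. PSMD3 is shown at chr17:39980750-39980798 on the plus strand and PSME2 at chr14:24146757-24146805 on the minus strand. The 21 tested members with a match had a median log2 fold change of 0.31, with 17 called higher. The 16 tested members with a window and no match had one of 0.23, with 12 called higher. Over all 43 tested members 81.4% were called higher, and over all tested genes 31.2%. The ranges with and without a match ran from below 0, at -0.17 and -0.30, to 0.86 and 0.57, and they overlapped over most of their length. With the first length correction the medians were 0.24 with a match and 0.21 without. For CCAAT the medians were 0.31 with a match and 0.26 without as measured, and 0.15 and 0.27 with that correction. The part of exon length in these values was not tested.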

How the data were processed

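RNA of 6 T24 libraries, 3 per group, was sequenced after preparation with an NEBNext Ultra kit, per the labels' protocols. The deposited table holds FPKM, per the file headers. featureCounts 1.5.0-p3, DESeq2 1.20.0 and hg38 are named in the submitters' processing notes. For the aligner and the strand setting no entry was found in the sources used here. Exon lengths, overlaps and positions came from GENCODE 29, which holds all 58735 gene identifiers. FPKM times exon length gave whole reads for 100% of values (tolerance 0.001 reads).

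limma 3.58.1 in R 4.3.3 (trend and robust options) was fitted to log2(FPKM + 1) of 14658 genes with a mean of at least 0.5 FPKM, group as the only term, two-sided, with Benjamini-Hochberg adjustment over all of them. Fold changes on this scale understate those of low genes. The fits were also run on simulated reads in which few genes changed, unlike these data, so that run does not give their error rate here. Length corrections used a natural spline with 4 degrees of freedom. Replicate pairs differed beyond sampling noise (chi-square per gene 2.02 to 3.52 within groups).

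Members, lists and alternatives were chosen with earlier results of these data known. Values per library were given for the 2 largest and 2 smallest fold changes of PSMA, PSMB, PSMC and PSMD, all PSME, PSMF and PSMG genes, POMP, PSMB5, PSMB6, PSMB7, PSMD4, PSMD14 and members called lower. Values, as means or per library, were given for up to 3 genes of each other list with the smallest adjusted p. Others, such as PSMA1, PSMA2, PSMA7, PSMD3 and PSMD9, were named after their values were seen.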

Additional observations from a re-analysis of the deposited data

How the results depend on the processing

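The numbers of members higher and lower were 26 and 5 with median-ratio rescaling, 25 and 5 with TPM, 28 and 5 with limma-voom on recovered reads, 28 and 4 after length correction by the first way, 20 and 6 after the second, and 33 and 2 among genes of at least 5 FPKM. Medians for all members, PSMA, PSMB, PSMC, PSMD and PSME were 0.21, 0.37, 0.30, 0.058, 0.10 and 0.23 with median-ratio rescaling, 0.19, 0.40, 0.29, 0.047, 0.093 and 0.22 with TPM, and 0.22, 0.46, 0.31, 0.069, 0.12 and 0.24 with limma-voom. They were 0.23, 0.42, 0.15, 0.026, 0.18 and 0.25 after length correction by the first way and 0.11, 0.35, -0.023, -0.040, 0.12 and 0.19 after the second, so the PSMB and PSMC medians reversed there. An offset of 0.1 gave 0.35 for all members and 0.58 for PSMA. Leaving out each library in turn gave 33 to 35 members higher and 1 to 2 lower, and medians of 0.29 to 0.35 for all members, 0.48 to 0.52 for PSMA, 0.40 to 0.47 for PSMB, 0.16 to 0.24 for PSMC, 0.20 to 0.24 for PSMD and 0.34 to 0.39 for PSME. Among members with under 5% of exon positions shared, a setting chosen after seeing the data, the medians without length correction were 0.34 for all and 0.31 for PSME, and the SD of sgNC levels was 1.90 for PSMA and 1.31 for PSMD. Single genes that reversed were PSMC4 after the first (-0.030), and PSMB3 (-0.023), PSMB5 (-0.12), PSMB6 (-0.024), PSMB7 (-0.052), PSMC2 (-0.019), PSMC4 (-0.14), PSMD4 (-0.0012), PSMD7 (-0.057) and PSMD10 (-0.10) after the second. With the replicate number as a block 35 members were higher and 1 lower, as without it. Same-numbered libraries did not deviate together (correlations of -0.051 to 0.0016), so the numbers are not known to pair the samples. The cause of these changes was not tested. Depth limits PSMA2, PSMA6 and PSMD9, at means of 27.7, 85.7 and 176 reads in sgNC.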

Other observations

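Antisense partners and pseudogene copies of the members reached at most 4.82 FPKM in any library. Of 4 antisense genes of members the highest was PSMA3-AS1, at 4.02 FPKM in sgNC and 4.56 FPKM in sgOTUD1. Over all libraries it had 29.9% as many reads as PSMA3. PSMD6-AS2 was at 0.887 and 0.356 FPKM and PSMG3-AS1 at 0.632 and 0.285 FPKM, below sgNC where the sense genes PSMD6 and PSMG3 were above it. PSMB8-AS1, the partner of an immunoproteasome gene outside the set, was at 1.43 and 2.61 FPKM. These antisense values were not tested. Without a stated strand setting, sense and antisense reads cannot be told apart in exon positions that both genes share. PSMA3 shares 0% of its exon positions with other genes, PSMG3 3.06% and PSMD6 7.83%. Among 29 pseudogenes, 18 of them without reads, PSMC1P1 was at 2.16 and 2.52 FPKM, with 4.88% as many reads as PSMC1 over all libraries, and PSMD10P2 was at 1.64 and 0.895 FPKM, with 1.79% as many as PSMD10.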
